A study of Mus musculus and Acomys cahirinus with 25 samples.

Results

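Ifi202b and 4 of its neighbours in the Ifi200 gene cluster, Ifi203, Ifi204, Mndal and Aim2, were followed through 25 RNA-seq libraries of skin, most of them from wounds. These are 5 of the 24500 gene rows of the count tables, and each was taken by its symbol. The genes were chosen by measured values, because Ifi202b had counts in the dermis of K14-Cre-Twist1 knockout (KO) wounds and in laboratory mouse epidermis, and none in the wild-type wound center dermis libraries Chuong753, Chuong754 and Chuong755. The levels in those libraries are therefore given as a description, with no test.

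The libraries come from a study of wound-induced hair neogenesis, the formation of new hair follicles in the center of a large skin wound. The laboratory mouse libraries were made at post-wound day (PWD) 14 from full-thickness dorsal wounds, whose center was punched out and whose remainder was taken as the margin, with epidermis and dermis separated by hand. Wild-type (WT) epidermis of the wound center is represented by libraries Chuong806 and Chuong808 and of the wound margin by Chuong812 and Chuong813, wild-type dermis of the center by Chuong781, Chuong782, Chuong753, Chuong754 and Chuong755 and of the margin by Chuong785 and Chuong786, and KO dermis of the center by Chuong757 and Chuong758. The KO mice carried loxP-flanked Twist1 and a Cre recombinase driven by the keratin 14 promoter, which acts in basal keratinocytes, so Twist1 counts in dermis do not check the label. Twist1, a transcription factor of the mesenchyme, had 73.4 and 44.0 CPM (counts per 1000000 gene counts of the library) in the KO libraries and 36.3 to 159 CPM in the 5 wild-type center dermis libraries. Laboratory mice were wounded at 4 weeks of age, and C57Bl/6J, the K14-Cre-Twist1 line and wild-type Twist1+/+ mice of both sexes were used. The strain of the K14-Cre-Twist1 line is not given in the sources used here, so strain and genotype cannot be told apart. The other 12 libraries are from 2-month-old wild-type spiny mice (Acomys cahirinus), 6 of epidermis and 6 of dermis. They were made without a division into center and margin at PWD0, 14, 21 and 28. The study describes its first time as before hair neogenesis, and its methods name shaved skin or wound as the material. The days used here are those of the labels, and a listing in the study's supplement gives slightly different ones for all but PWD0. Reads of both species were counted on mouse gene models.

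The Ifi200 genes are induced by interferons and encode proteins with HIN domains, which bind DNA. Most members also carry a pyrin domain, through which proteins assemble with one another. Aim2 is the cytosolic sensor of double-stranded DNA that recruits the adaptor Pycard into an inflammasome. Ifi202b encodes a HIN protein without a pyrin domain that can block Aim2, and its expression is known to differ strongly between inbred mouse strains. Ifi204 encodes p204, a nuclear and cytosolic protein linked to differentiation and DNA sensing, and Mndal and Ifi203 encode nuclear relatives of it.

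The cluster lies on chromosome 1. In the RefSeq annotation of GRCm38.p6, 11 gene rows of the count tables fall between 173349547 and 174031755, a span of 682 kb that contains Aim2 (chr1:173349547-173466040), Ifi204 (chr1:173747293-173767069), Mndal (chr1:173857215-173880382), Ifi203 (chr1:173920400-173942866) and Ifi202b (chr1:173962569-173982844). All 5 are protein-coding, Aim2 on the plus strand and the other 4 on the minus strand. The 6 further rows are Pydc4 (now Ifi213), Pyhin1 (Ifi209), Pydc3 (Ifi208), AI607873 (Ifi207), Mnda (Ifi211) and Ifi205. A last row of the family, BC094916, has no position in that annotation and had 31 counts in Chuong755 and at most 1 in every other laboratory mouse library.

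Sequence before the transcription start is shown for Ifi202b because its counts depart from those of its neighbours. It is reference sequence, and whether the mice of these libraries carry it was not examined. A link between motif matches and counts was not tested. The 250 bases before its start, chr1:173982845-173983094 on the minus strand (GRCm38.p6, RefSeq), are printed 5′ to 3′ with a match to the STAT-type motif TTCNNNGAA in capitals, read on both strands.
Ifi202b: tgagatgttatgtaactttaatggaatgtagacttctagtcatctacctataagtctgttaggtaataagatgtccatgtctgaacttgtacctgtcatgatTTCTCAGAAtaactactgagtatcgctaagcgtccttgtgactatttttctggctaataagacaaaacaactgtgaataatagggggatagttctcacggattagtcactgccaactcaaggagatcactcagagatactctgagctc

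Of the 10 cluster genes with such a sequence (Ifi204 has none in the table used), Ifi202b held the TTCNNNGAA match alone, beside 7.02% of the 32851 mouse start-site sequences of this length. The interferon-response core GAAANNGAA, searched on both strands, was matched in 7 of the 10 genes, beside 7.13% of all start-site sequences. Ifi202b, Aim2 and Pyhin1 held no match in this window. The matches are shown with 10 bases on either side, since the same letters recur before the starts of different members. Mndal and Ifi203 each have another start in the table. That of Ifi203 held no match, and that of Mndal held a different one, on the other strand, which is shown last.
Mndal: aagagctgggGAAATCGAAagctatgaac
Ifi203: aagagctgggGAAATCGAAagctatgaac
Pydc4: cgtctctgagGAAATCGAAagctatgaac
Pydc3: cgtctctgagGAAATCGAAagctatgaac
AI607873: cctagccaggGAAATCGAAaattaagaac
Mnda: caaagccaggGAAATTGAAagctatgaac
Ifi205: ccaggccaggGAAATTGAAagctatgaac
Mndal, other start: tttgagtcatTTCTCTTTCtactcaaaac

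Capitals mark the core or its reverse complement. The core starts 36 bases before the start of Mndal (chr1:173880205-173880233) and 35 before that of Ifi203 (chr1:173942509-173942537), both on the minus strand. The start-site sequences of these 2 genes align over 239 bases with 97.5% identity, whereas the best alignment of these same sequences with Ifi202b covers 69 bases at 65.2% identity. The members are copies of one another and the matches are no independent observations.

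Such copies can also exchange reads. The longest RefSeq-linked GENCODE M21 transcript of each gene was cut into windows of the read length, 75 bases, and compared on both strands with all other transcripts. Ifi202b and Aim2 shared 0 windows with any other gene. Ifi203 shared 2.41% of its windows, Mndal 13.9% and Ifi204 20.7%, most of the last 2 with Mnda (Ifi211), which itself shared 63.6%. Values of Mndal, Ifi204 and the further members are thus uncertain to the extent that reads matched more than one of them, and in GENCODE the Mndal gene also spans Mnda and Ifi203.

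The laboratory mouse libraries held 19413261 to 86532134 gene counts, so that 3 counts, taken as the floor of detection, correspond to 0.0347 to 0.155 CPM. The spiny mouse libraries held 5669760 to 34751956, with floors of 0.0863 to 0.529 CPM. All replicate pairs differed beyond sampling noise. Chuong758 stands apart, with 711 genes at 0 that had at least 50 counts in each of the other 8 dermis libraries, against at most 16 in any other dermis library, and Chuong812 stands apart among the epidermis libraries, with 145 genes at 0 that had at least 50 counts in the other 3. The summed level of 6 keratinocyte genes (Krt5, Krt14, Krt1, Krt10, Krt6a and Trp63) was 140645 to 201851 CPM in laboratory mouse epidermis and 10.6 to 3547 CPM in wild-type dermis, but 952 CPM in KO Chuong757 and 31169 CPM in KO Chuong758. Xist was counted in Chuong753, Chuong754, Chuong755 and Chuong813 at 508 to 671 CPM and at no more than 1 count in any other laboratory mouse library, whereas 4 Y-linked genes had counts in the other 9 and none in those 4. The sex of the KO dermis libraries thus differs from that of Chuong753, Chuong754 and Chuong755, and genotype and sex cannot be told apart in that comparison. The study describes its RNA-seq replicates as biologically independent, and the labels do not name the animals.

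In laboratory mouse skin, Ifi202b was highest in epidermis and was also counted in KO dermis. Wound center epidermis had 182 and 297 CPM of Ifi202b. Wound margin epidermis had 60.3 and 34.6 CPM, and wound margin dermis had 2.15 and 4.15 CPM. All 5 wild-type wound center dermis libraries, Chuong781 and Chuong782 as well as Chuong753, Chuong754 and Chuong755, had 0 counts.

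The 2 KO wound center dermis libraries held 2660 and 2521 counts of Ifi202b, or 125 and 116 CPM. Their mean of 121 ± 6.35 CPM (SD, n = 2) stood between those of wound center epidermis, 239 ± 81.7 CPM (SD, n = 2), and wound margin epidermis, 47.4 ± 18.2 CPM (SD, n = 2). No neighbours in this order overlapped, wound margin dermis being the lowest group with counts at 3.15 ± 1.41 CPM (SD, n = 2). Against the largest floor of libraries Chuong753, Chuong754 and Chuong755, 0.151 CPM, the KO mean was at least 798-fold higher, and against the largest floor of all 5 wild-type center libraries at least 780.9-fold. Epidermis and dermis libraries also differ in read type, paired-end and single-end, so the order across the tissues is a description.

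**Figure D1:**
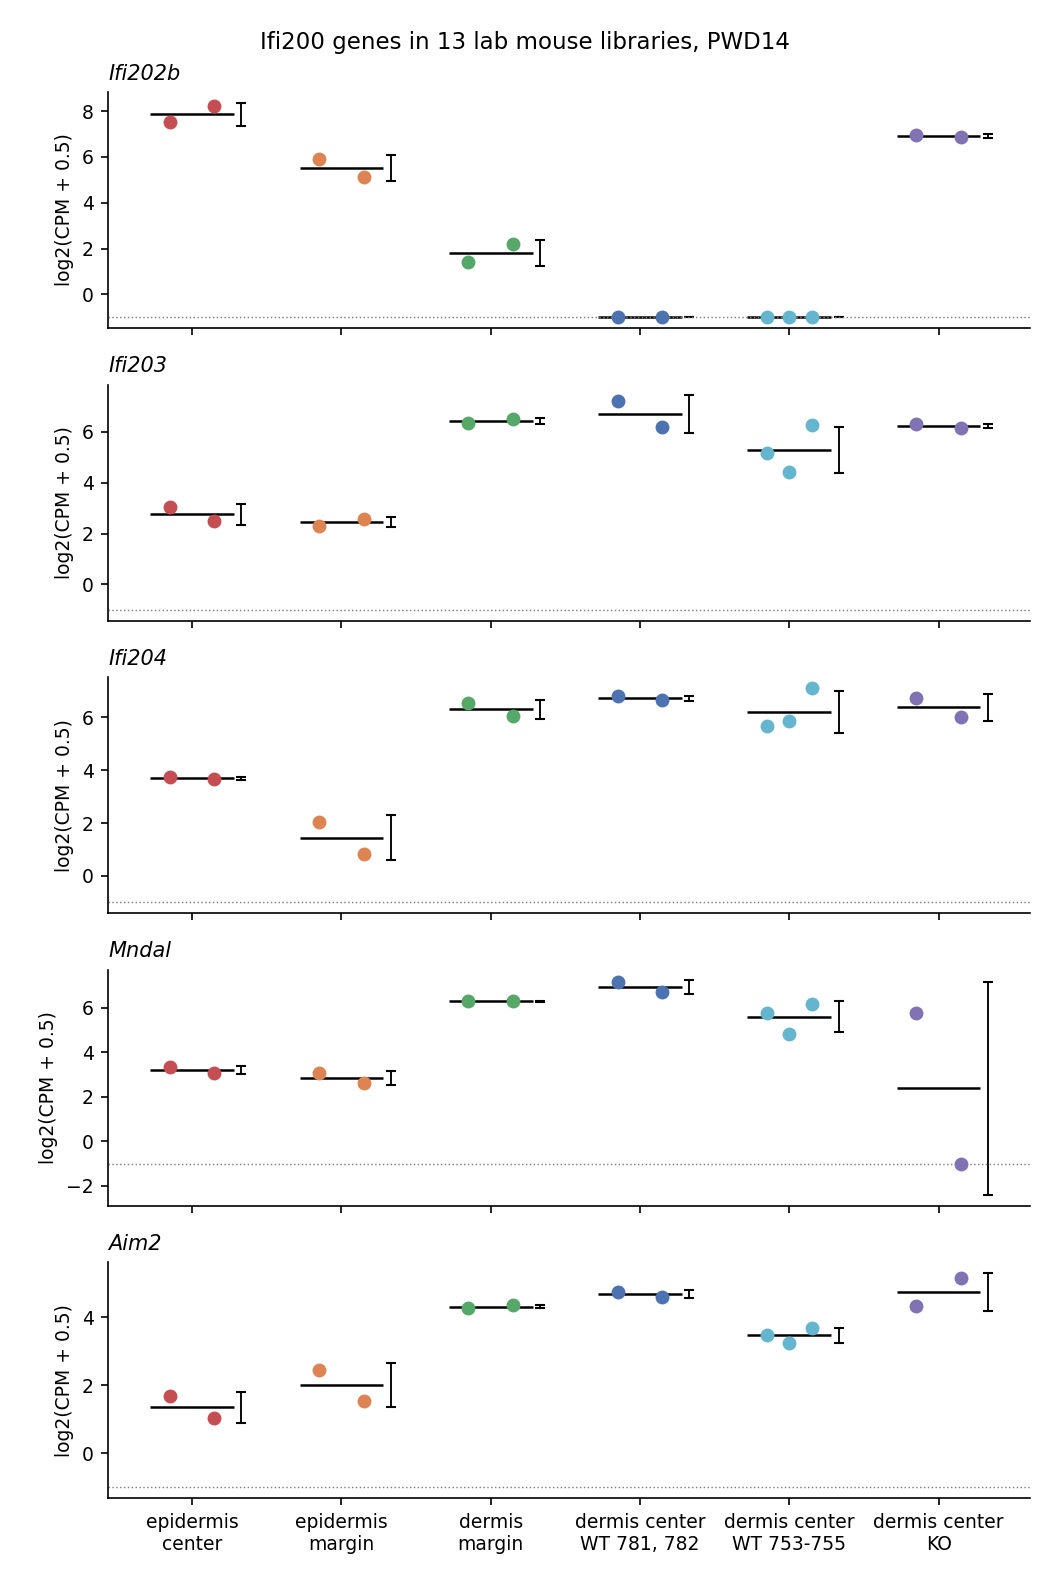
Levels of the 5 genes in the 13 laboratory mouse libraries, as log2(CPM + 0.5) on the vertical axes, with 1 point per library, the group mean as a line, its SD as a bar and 0 counts as a dotted line. Ifi202b stands high in epidermis and in KO dermis and at 0 in the 5 wild-type center dermis libraries, whereas the other 4 genes are higher in dermis than in epidermis, apart from Mndal in Chuong758, at 0.

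Its neighbours had the opposite distribution between the tissues. Ifi203 had 5.07 and 7.82 CPM in wound center and 4.45 and 5.52 CPM in wound margin epidermis, against 80.5 and 90.2 CPM in wound margin dermis. The wound center dermis libraries ranged more widely, with 149 and 72.2 CPM in Chuong781 and Chuong782 and 35.7, 21.0 and 76.3 CPM in Chuong753, Chuong754 and Chuong755. The KO libraries had 78.4 and 71.6 CPM of Ifi203, within the range of the 5 wild-type center libraries.

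Ifi204 had 12.9 and 12.1 CPM in wound center epidermis and 3.63 and 1.29 CPM in wound margin epidermis. In wild-type dermis it had 92.6 and 66.0 CPM at the margin, 111 and 99.9 CPM in Chuong781 and Chuong782, and 50.1, 58.0 and 139 CPM in Chuong753, Chuong754 and Chuong755. The 2 KO libraries, at 106 and 64.4 CPM, lay inside that range. No epidermis library reached the lowest dermis library.

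Aim2 was counted in all 13 libraries and was again higher in dermis. Epidermis had 2.69 and 1.56 CPM at the center and 4.99 and 2.43 CPM at the margin. Wild-type dermis had 18.9 and 19.9 CPM at the margin, 26.6 and 23.8 CPM in center libraries Chuong781 and Chuong782, and 10.6, 8.97 and 12.4 CPM in Chuong753, Chuong754 and Chuong755. KO dermis had 19.9 and 34.8 CPM, above Chuong753, Chuong754 and Chuong755 but overlapping the range of all 5 wild-type center libraries.

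Mndal parted the 2 KO libraries. It had 9.56 and 7.96 CPM in wound center epidermis, 7.99 and 5.71 CPM in wound margin epidermis, 77.1 and 77.5 CPM in wound margin dermis, and 140.3, 104, 53.3, 27.8 and 72.2 CPM in center dermis libraries Chuong781, Chuong782, Chuong753, Chuong754 and Chuong755. KO Chuong757 had 54.1 CPM and KO Chuong758 had 0 counts. The 8 other dermis libraries averaged 75.8 CPM of Mndal, and of the 2334 genes that averaged 50 to 100 CPM there, 7 (0.300%) were at 0 in Chuong758 and 0 in Chuong757.

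The zeros of Chuong758 were not confined to Mndal. Along the chromosome, 6 of the 11 cluster genes were at 0 in it, namely Pydc4, Pyhin1, Pydc3, Mndal, Mnda and Ifi205, and they alternate with Aim2 (34.8 CPM), AI607873 (1029 counts), Ifi204 (1397 counts), Ifi203 (1554 counts) and Ifi202b (2521 counts). For genes at the levels of Pyhin1 and Mnda, 20 to 50 CPM, 3.96% were at 0 in Chuong758, at the level of Ifi205, 10 to 20 CPM, 15.6%, and at the level of Pydc3 and Pydc4, 1 to 5 CPM, 58.0%. No cluster gene was at 0 in Chuong757.

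**Figure D2:**
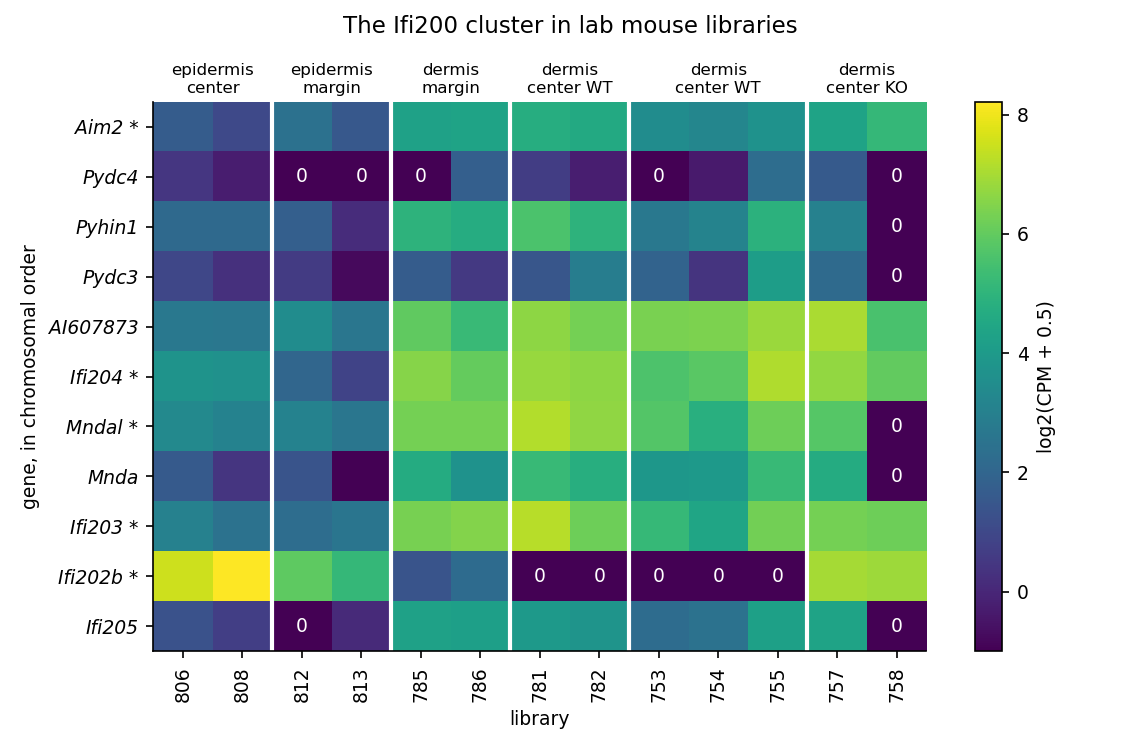
Color shows log2(CPM + 0.5) of the 11 cluster genes, in chromosomal order from top to bottom, in each laboratory mouse library, with 0 marking no counts and asterisks the 5 genes described. The Ifi202b row is dark in the 5 wild-type center dermis libraries and bright in epidermis and KO dermis, and the column of Chuong758 holds 6 zeros.

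Per length, the genes could be ranked within a tissue. In CPM per kb of transcript, wild-type dermis (mean of 7 libraries) had 38.9 of Mndal, 38.3 of Ifi204, 20.8 of Ifi203, 6.10 of Aim2 and 0.530 of Ifi202b, the last from the 2 margin libraries alone. KO dermis had 71.1 of Ifi202b, above Ifi204 at 37.0, Ifi203 at 20.8, Mndal at 13.4 and Aim2 at 9.63. The Mndal value there averages 54.1 CPM in Chuong757 with 0 counts in Chuong758, so its rank rests on that zero. In epidermis, Ifi202b had 84.5 and the other 4 genes 1.03 to 3.85. On this scale Ifi202b was the highest of the 5 genes in epidermis and in KO dermis and the lowest in wild-type dermis.

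Because keratinocyte genes and Ifi202b were both high in epidermis, Ifi202b was set against the summed level of the 6 keratinocyte genes. The ratio was 1.14 and 1.95 CPM of Ifi202b per 1000 CPM of keratinocyte genes in wound center epidermis and 0.429 and 0.171 in wound margin epidermis. Wound margin dermis, at 1.22 and 1.17, lay within this epidermal range. KO Chuong758 was at 3.73 and KO Chuong757 at 131, both above the epidermis libraries by this sum, most of which is Krt1 and Krt10 in epidermis. Taken gene by gene, Chuong757 lay above the epidermis libraries for all 6 keratinocyte genes and Chuong758 for 4 of them. Per 1000 CPM of the basal keratins, Chuong758 lay inside the epidermal range, at 37.3 for Krt5 (epidermis 3.90 to 44.6) and at 24.7 for Krt14 (epidermis 4.89 to 24.8). Wound margin dermis Chuong785 lay above that range for Krt1, at 5.58 (epidermis 0.338 to 4.21). It lay below for Krt6a, at 14.7 (epidermis 19.1 to 86.5), and for Trp63, at 93.3 (epidermis 97.9 to 894). Chuong786 lay inside for all 6 genes.

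Expressed as counts, keratinocyte genes at the highest epidermal ratio would accompany 39.5 counts of Ifi202b in Chuong757, which held 2660, and 1321 in Chuong758, which held 2521. With single genes, the same calculation gave 14.5 to 210.2 counts in Chuong757 and 687 to 3014 in Chuong758, where Krt5 and Krt14 gave 3014 and 2536, more than were counted. The number to set beside the Chuong758 value thus depends on the gene it is read against. The ratios are those of wild-type epidermis, and the series holds no KO epidermis library. The part of keratinocyte RNA in the KO values was not tested. For the wild-type center dermis libraries the summed genes gave 26.05 counts in Chuong781 and 14.4 in Chuong782 at the highest epidermal ratio. The lowest ratio gave 2.28 and 1.26. In Chuong753, Chuong754 and Chuong755 the sum gave at most 2.96. Single genes at the highest ratio gave 9.76 to 133 counts in Chuong781 and 12.2 to 129 in Chuong782. In Chuong753, Chuong754 and Chuong755 they gave at most 49.2, for Trp63 in Chuong753. None of the 5 libraries held any Ifi202b counts, and the number to compare with this also depends on the gene. In bulk tissue, fewer cells of a type and less RNA per cell cannot be told apart.

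**Figure D3:**
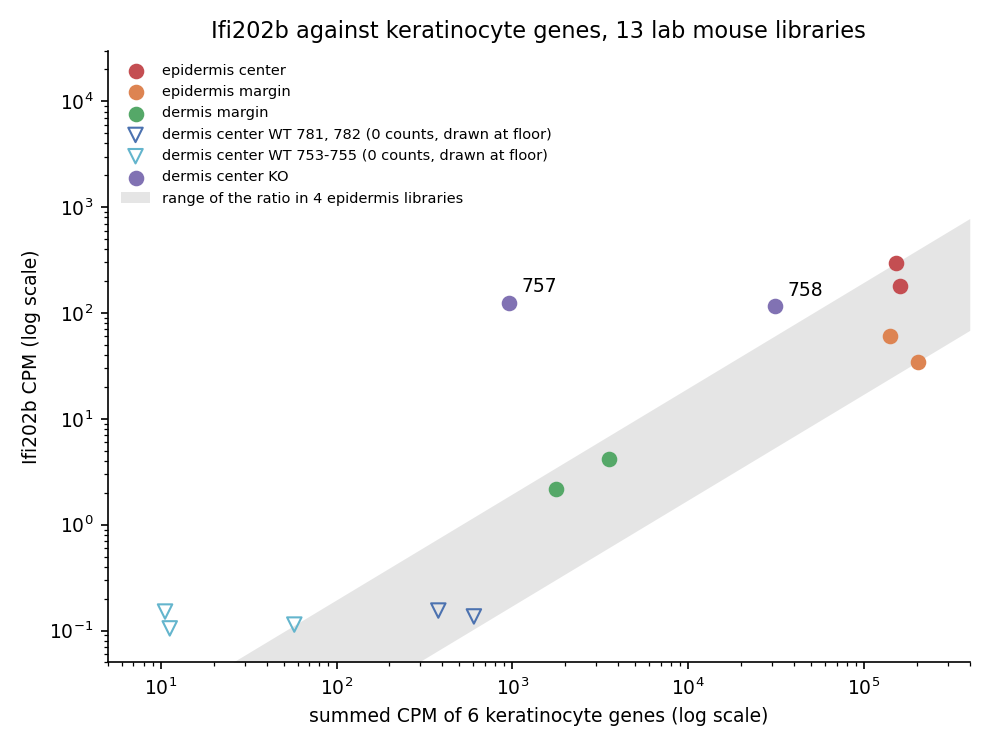
Ifi202b CPM on the vertical axis against the summed CPM of 6 keratinocyte genes on the horizontal axis, both logarithmic, with 1 point per laboratory mouse library and the band spanning the ratios of the 4 epidermis libraries. The wound margin dermis libraries fall in the band, KO Chuong757 at 131 and Chuong758 at 3.73 CPM per 1000 CPM lie above it, and triangles stand for 0 counts drawn at the floor.

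The lower bound for KO dermis was 769-fold without Chuong757 and 828-fold without Chuong758. Since these libraries were used to choose the gene, this is a description and no check of the difference. Libraries Chuong781 and Chuong782 had the Y-linked gene Ddx3y at 102 and 105 CPM and no Ifi202b. Chuong813, with Xist at 593 CPM and no Ddx3y counts, held 2992 counts of Ifi202b. The part of sex in the KO values was not tested.

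Other genes shared the pattern by which Ifi202b was chosen. At most 3 counts in each of Chuong753, Chuong754 and Chuong755 and at least 1 CPM in both KO libraries were found for 81 genes, 65 of which also reached 1 CPM in all 4 epidermis libraries. Ranked by the lower KO library, Ifi202b (116 CPM) was followed by the Y-linked genes Ddx3y (80.8 CPM) and Eif2s3y (62.5 CPM) and by the keratinocyte genes Krtdap (36.1 CPM) and Krt16 (21.3 CPM). The higher KO library had 2397 CPM of Krtdap and 975 CPM of Krt16, above Ifi202b. In the reverse direction there were 36 genes, led by Xist (508 CPM), Trem1 (7.09 CPM), Tarm1 (6.26 CPM), Gm2115 (4.56 CPM) and Stk32b (4.26 CPM). With all 5 wild-type center libraries required to hold at most 3 counts, 30 genes were left, Ifi202b at 116 CPM and the next, Slc35f2, at 3.91 CPM.

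Around the cluster, within 1 Mb of either end, the count tables hold 41 further genes, 13 of which averaged 1 CPM or more over the laboratory mouse dermis libraries. For 4 of the 13 the KO and the Chuong753, Chuong754 and Chuong755 values did not overlap, and all 4 were lower in KO. Over all 13995 genes at this level, 29.5% did not overlap, and nothing is read from this contrast. Tagln2, which encodes an actin-binding protein, was the most abundant at 235 to 370.0 CPM in KO and 238 to 368 CPM in the 3 wild-type libraries. Pigm and Ackr1 also overlapped, and Dusp23 had 7.53 to 12.7 CPM in KO and 13.3 to 24.03 CPM in wild-type libraries.

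Over the 13 laboratory mouse libraries, the genes most like Ifi202b were Slc35f2 (Pearson r = 0.96 of log2(CPM + 0.5)), Mfsd2a (0.93), 1810058I24Rik (0.92), Glo1 (0.90) and Mt4 (0.90), out of 15160 genes ranked. These points share tissue and read type, and the correlation is a description. The order depends on the scale, since only 1 of the 5 stayed among the first 5 by Spearman's rho and 2 with a pseudocount of 0.1 CPM. The 10 other cluster genes had r from -0.73 for Mnda to -0.13 for Pydc4, with -0.70 for Mndal, -0.56 for Ifi204, -0.56 for Ifi203 and -0.48 for Aim2.

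Glo1 and Nnt are known to vary between inbred strains and were read beside Ifi202b. Glo1, an enzyme that detoxifies methylglyoxal and is duplicated in some strains, had 20.5 to 38.9 CPM in the 7 wild-type dermis libraries, 50.1 and 74.1 CPM in KO dermis and 82.3 to 130 CPM in epidermis. Nnt, a mitochondrial transhydrogenase partly deleted in C57BL/6J, had 30.2 to 69.5 CPM in wild-type and 45.8 and 49.5 CPM in KO dermis, and counts per gene do not show that deletion. The part of strain in the Ifi202b values was not tested.

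Lists of genes were then read in the KO comparison, with edgeR's quasi-likelihood test over all 14163 genes tested. At a Benjamini-Hochberg adjusted p under 0.05, 8 genes (0.0565%) were called, and since the choice of genes used this contrast no test is given for the 5 members. Of 6 keratinocyte genes 2 rose by this call and all 6 were fitted higher, with a median log2 fold change of 8.47 beside -0.07 over all genes. Krt14 had a log2 fold change of 9.42 (SE 1.12, adjusted p = 0.0474) and Krt6a of 7.05 (SE 0.91, adjusted p = 0.0474). None of the 25 interferon targets was called (1 at an unadjusted p under 0.05, 0 by DESeq2), with a median of 0.04. The 14 interferon receptor and signaling genes gave 0 calls (0 unadjusted, 0 by DESeq2), the 14 genes of DNA sensing and the inflammasome 0 (3 unadjusted, 0 by DESeq2), and the 6 other cluster genes 0 (0 unadjusted, 0 by DESeq2). Lists of macrophage, dendritic cell, lymphocyte, neutrophil, fibroblast, muscle and adipocyte markers held no call by edgeR, and 1 neutrophil gene was called by DESeq2. Unadjusted, 3 of the 4 neutrophil genes tested were under 0.05, and the median fitted change was -2.48 on the log2 scale. The 5 listed neutrophil genes summed to 36.1 and 76.3 CPM in KO dermis, and to 172, 759 and 109 CPM in Chuong753, Chuong754 and Chuong755. Chuong781 and Chuong782, which were not in this fit, had 32.8 and 23.0 CPM. The part of neutrophils in the KO values was not tested. The summed level of 8 macrophage genes was 1514 to 2802 CPM in wild-type center dermis and 2364 and 1693 CPM in KO dermis.

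The wound center is where new follicles form, and the next comparison asked how the cluster differed between center and margin epidermis. Ifi202b was 239 ± 81.7 CPM (SD, n = 2) in the center and 47.4 ± 18.2 CPM (SD, n = 2) in the margin, without overlap. Its log2 fold change was 2.23 (SE 0.42) with an adjusted p = 0.0744 in edgeR's quasi-likelihood test. Ifi204 averaged 12.5 ± 0.568 CPM in the center and 2.46 ± 1.65 CPM in the margin (SD, n = 2 each). It differed by a log2 fold change of 2.42 (SE 0.54, adjusted p = 0.0973). None of the 5 genes passed an adjusted p of 0.05, a threshold met by 1.24% of the 14165 genes tested. At an unadjusted p under 0.05 there were 2, Ifi202b and Ifi204, beside 23.5% of all genes. DESeq2 called the same 2, with adjusted p = 7.07e-06 and adjusted p = 0.00855, beside 10.7% of all genes.

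The remaining 3 genes had smaller fitted differences in epidermis. Mndal had a log2 fold change of 0.28 (SE 0.36), Ifi203 of 0.26 (SE 0.38) and Aim2 of -0.79 (SE 0.59). The calls of the first pair turned on single libraries. Without margin Chuong813 Ifi202b had an adjusted p = 5.54e-09, without Chuong812 it had 1.98e-07 and without center Chuong806 it had 0.0253, whereas without Chuong808 it had 0.188. Ifi204 had an adjusted p = 7.33e-07 without Chuong812 and 7.93e-05 without Chuong813, and without Chuong813 Aim2 also passed, at a log2 fold change of -1.35 (adjusted p = 0.0114). These fits called many genes, 36.4% of all without Chuong812 and 50.9% without Chuong813, against 0.674% without Chuong806. An arm left with 1 library was assumed to vary like the other, and Chuong813 is also the epidermis library that differs in sex.

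Interferon targets were described in the same libraries. All 25 were fitted higher in the center, with a median log2 fold change of 2.16 beside -0.02 over all genes, and 2 of them rose by the adjusted test, Oasl1 (log2 fold change 5.27, SE 0.81, adjusted p = 0.0398) and Isg15 (5.08, SE 0.68, adjusted p = 0.0367), both products of interferon signaling. The margin means of Oasl1 and Isg15 were 0.0693 and 0.199 CPM, beside floors of 0.0850 and 0.0347 CPM in Chuong812 and Chuong813. Of the 25 targets, 17 had an unadjusted p under 0.05 and DESeq2 called 13. Of the 10 interferon genes, 2 had enough counts to be tested and neither was called (1 unadjusted, 0 by DESeq2). Interferon receptor and signaling genes gave 0 calls of 14 (2 unadjusted, 2 by DESeq2), the 13 tested genes of DNA sensing and the inflammasome gave 0 (3 unadjusted, 2 by DESeq2) and the 6 other cluster genes gave 0 (1 unadjusted, 0 by DESeq2), with a median of 1.39. The fibroblast marker Pdgfrb rose as well (log2 fold change 3.45, SE 0.38, adjusted p = 0.0367), with fibroblast genes summing to 3789 and 3167 CPM in the center and 1504 and 447 CPM in the margin, and the Langerhans cell gene Cd207 fell by 3.26 on the log2 scale (SE 0.41, adjusted p = 0.0390). Macrophage genes summed to 88.7 and 83.2 CPM in the center and 61.8 and 52.9 CPM in the margin. Neutrophil genes summed to 239 and 381 CPM in the center, with 2 and 1 of the 5 genes at 0. In the margin they summed to 45.8 and 17.1 CPM, with 3 and 2 at 0. Of the 3 tested, 0 were called (2 unadjusted, 2 by DESeq2), with a median log2 fold change of 2.76. Of the 4 adipocyte genes, 3 were at 0 in each of these libraries. The other, Fabp4, rose from a mean of 51.2 CPM in the margin to 492 CPM in the center (log2 fold change 3.16, SE 0.41, adjusted p = 0.0394). The part of these cell type genes in the cluster's values was not tested.

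In dermis, center libraries Chuong781 and Chuong782 were compared with margin libraries Chuong785 and Chuong786. Ifi202b had 50 and 92 counts in the margin and 0 in the center, a margin mean at least 20.4-fold above the largest center floor of 0.155 CPM. Its fitted value depends on the prior count and did not pass the test (adjusted p = 0.223), while DESeq2 called it (adjusted p = 0.0107). Since the gene entered the dermis fit through the margin libraries alone, neither value is taken as support. Keratinocyte genes moved with it, from 604 and 379 CPM in the center to 1761 and 3547 CPM in the margin, and Krt10 fell by 3.10 on the log2 scale (SE 0.37, adjusted p = 0.00387) and Krt1 fell by 2.31 (SE 0.36, adjusted p = 0.0131) in the center. The other 4 genes were fitted higher in the center, Mndal by a log2 fold change of 0.76 (SE 0.24, adjusted p = 0.195), Ifi204 by 0.49 (SE 0.25), Ifi203 by 0.49 (SE 0.32) and Aim2 by 0.47 (SE 0.38).

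None of the 5 was called in dermis, beside 0.85% of the 14698 genes tested. At an unadjusted p under 0.05 there were 2, Mndal and Ifi202b, beside 15.8% of all genes, and DESeq2 called 1, Ifi202b, beside 5.02% of all genes. With all 5 wild-type center libraries, the fitted differences of Ifi203 (-0.10) and Aim2 (-0.086) turned negative. Interferon targets were fitted higher in the center for all 25, with a median log2 fold change of 1.09 beside -0.03 over all genes, and 5 of them rose, among them Ifit1 (2.06, SE 0.29, adjusted p = 0.00807), Ifi27l2a (1.99, SE 0.26, adjusted p = 0.00535), Isg15 (1.83, SE 0.28, adjusted p = 0.0130) and Bst2 (1.43, SE 0.26, adjusted p = 0.0310). Of these targets, 18 had an unadjusted p under 0.05 and DESeq2 called 14. Irf7, the transcription factor that amplifies interferon expression, rose too (1.90, SE 0.23, adjusted p = 0.00397), as 1 of 14 receptor and signaling genes. The 6 other cluster genes gave 0 calls (1 unadjusted, 0 by DESeq2), with a median of 0.73.

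An interaction term over the 8 libraries tested whether the center-margin difference itself depended on the tissue. It was called for 1 of the 5 genes, Ifi202b (adjusted p = 0.00587), beside 3.48% of the 15531 genes tested. Both dermis center libraries were at 0 and in dermis the gene was counted in the margin alone, so this call is given as a description and supports nothing further. It rests on opposite orders of the groups, 182 and 297 against 60.3 and 34.6 CPM in epidermis and 0 and 0 against 2.15 and 4.15 CPM in dermis, and its fitted size depends on the prior count. It was lost without dermis Chuong781 (adjusted p = 0.0690), Chuong782 (adjusted p = 0.0558) or Chuong786 (adjusted p = 0.0718). Ifi204 had an interaction of 2.04 (SE 0.58, adjusted p = 0.0924), and without Chuong812 of 2.85 (adjusted p = 0.0115), where 4.51% of all genes were called. Over all genes this term had a median of 0.31 with TMM scaling and 0.16 with DESeq2's size factors. Tissue and read type cannot be told apart here, although each difference is taken within 1 read type.

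**Figure D4:**
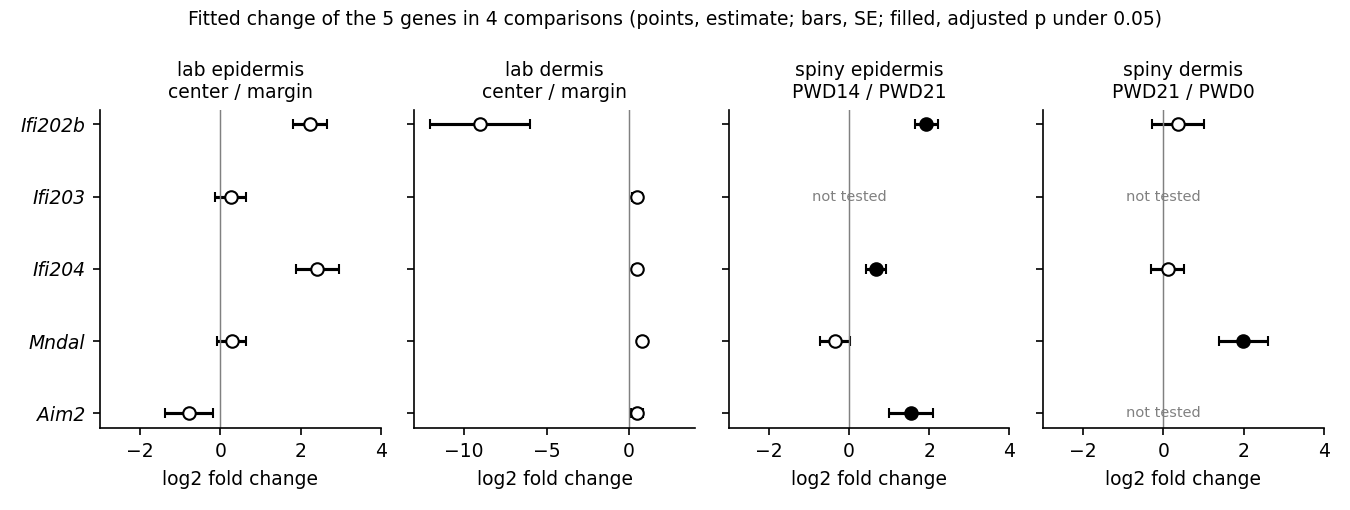
Fitted log2 fold changes (points) with their standard errors (bars) of the 5 genes in 4 comparisons, filled where the adjusted p was under 0.05 and open where it was not. Filled points are Ifi202b, Ifi204 and Aim2 in spiny mouse epidermis and Mndal in spiny mouse dermis, and the wide bar is Ifi202b in laboratory mouse dermis, whose center libraries held 0 counts.

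In the spiny mouse, reads that matched mouse Ifi202b were again mostly epidermal. The PWD0 library of epidermis had 4.34 CPM. The PWD14 libraries of epidermis had 78.6 and 90.4 CPM, those of PWD21 43.1 and 20.8 CPM, and the single PWD28 library 29.7 CPM. In dermis the level was 0.882 and 1.32 CPM in the PWD0 libraries, 1.59 CPM in the PWD14 library, 1.46 and 1.58 CPM in the PWD21 libraries and 0.585 CPM in the PWD28 library. No dermis library reached the PWD0 library of epidermis. Which spiny mouse gene gave these reads was not tested, 47.1% to 75.6% of what was counted in these libraries fell on no gene or was set aside, and levels are not compared across species.

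Between PWD14 and PWD21 epidermis, Ifi202b was higher at PWD14 by a log2 fold change of 1.93 (SE 0.29, adjusted p = 0.000391), a call that held in all 9 alternatives tried. Aim2 (1.55, SE 0.55, adjusted p = 0.0375) and Ifi204 (0.67, SE 0.25, adjusted p = 0.0429) also passed, so that 3 of the 4 genes tested rose, beside 46.6% of the 12889 genes tested. Aim2 rests on 14 and 29 counts at PWD14 and 25 and 13 at PWD21. Ifi204 had 18.1 and 22.5 CPM at PWD14 and 21.8 and 14.96 CPM at PWD21, which overlap. Without TMM scaling the log2 ratio of its mean CPM was 0.14 and the median of that ratio over all genes was -0.54, so its call is relative to that shift. The same ratio was 1.39 for Ifi202b and 0.67 for Aim2, below their fitted values. Mndal was lower on the first of these days, with 2.33 and 5.93 CPM against 8.39 and 7.14 CPM (log2 fold change -0.34, SE 0.38), and Ifi203, at 0 to 16 counts, was not tested.

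The calls of Aim2 and Ifi204 were not firm. Aim2 was not called by DESeq2 (adjusted p = 0.149), and both were lost without the low-count filter (0.0685 for Aim2 and 0.0746 for Ifi204) and with the edgeR 3 estimate (0.0657 and 0.0548). Without PWD14 Chuong542 the adjusted p was 0.234 for Aim2 and 0.0891 for Ifi204, and without PWD21 Chuong546 0.169 and 0.378. Aim2 was also lost without PWD21 Chuong545, at 0.199. Without PWD14 Chuong542 Mndal passed, at a log2 fold change of -1.16 (adjusted p = 0.0219), beside 49.2% of all genes. Without Chuong541 its difference turned to 0.11.

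Interferon targets went the other way from Ifi202b in this comparison. Of 17 tested, 11 were lower at PWD14 and 0 higher, with a median log2 fold change of -2.40 beside -0.04 over all genes, among them Ifi44 (-4.86, SE 0.80, adjusted p = 0.000500), Usp18 (-3.49, SE 0.55, adjusted p = 0.000523) and Gbp2 (-3.48, SE 0.71, adjusted p = 0.00228). At PWD14 the means of Ifi44, Usp18 and Gbp2 were 0.0957, 0.353 and 0.198 CPM, beside floors of 0.233 and 0.191 CPM in Chuong541 and Chuong542. Their fitted values thus rest mainly on the PWD21 libraries. Xaf1 had 0 CPM at PWD14 and a mean of 1.38 CPM at PWD21. Of 13 receptor and signaling genes 6 were lower and 2 higher, with Ifngr1, a chain of the interferon gamma receptor, at -2.42 (SE 0.32, adjusted p = 0.000209). Among 14 genes of DNA sensing and the inflammasome 2 were higher and 2 lower, with Pycard, the adaptor of Aim2, at 0.80 (SE 0.15, adjusted p = 0.00172) and the inflammasome sensor Nlrp1b at -1.56 (SE 0.23, adjusted p = 0.000416). All these counts stand beside 46.6% of all genes called in this comparison. The mean CPM at PWD14 and PWD21 was 177 and 149 for Pycard and 49.1 and 49.0 for Il1b, the other higher gene. Their calls are relative to the median log2 ratio of -0.54 over all genes without TMM scaling. Of 6 keratinocyte genes 4 were fitted higher, with a median of 0.17, and 2 rose, Krt14 (1.82, SE 0.22, adjusted p = 0.000140) and Krt6a (1.89, SE 0.23, adjusted p = 0.000143). S100a9, the 1 neutrophil gene tested, rose as well (3.33, SE 0.37, adjusted p = 8.9e-05). Of the 2 adipocyte genes tested, Fabp4 rose (2.81, SE 0.21, adjusted p = 5.05e-05) and Cidec fell (-2.50, SE 0.77, adjusted p = 0.0197). Of 7 macrophage genes 3 rose, namely C1qa (2.90, SE 0.65, adjusted p = 0.00393), C1qb (2.22, SE 0.34, adjusted p = 0.000502) and Cd68 (1.58, SE 0.30, adjusted p = 0.00172), and Csf1r fell (-1.60, SE 0.27, adjusted p = 0.000784). Their part in the cluster's values was not tested. Ifi202b per 1000 CPM of keratinocyte genes was 0.113 in the PWD0 library, 0.906 and 1.13 in the PWD14 libraries, 0.571 and 0.295 in the PWD21 libraries and 0.931 in the PWD28 library.

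**Figure D5:**
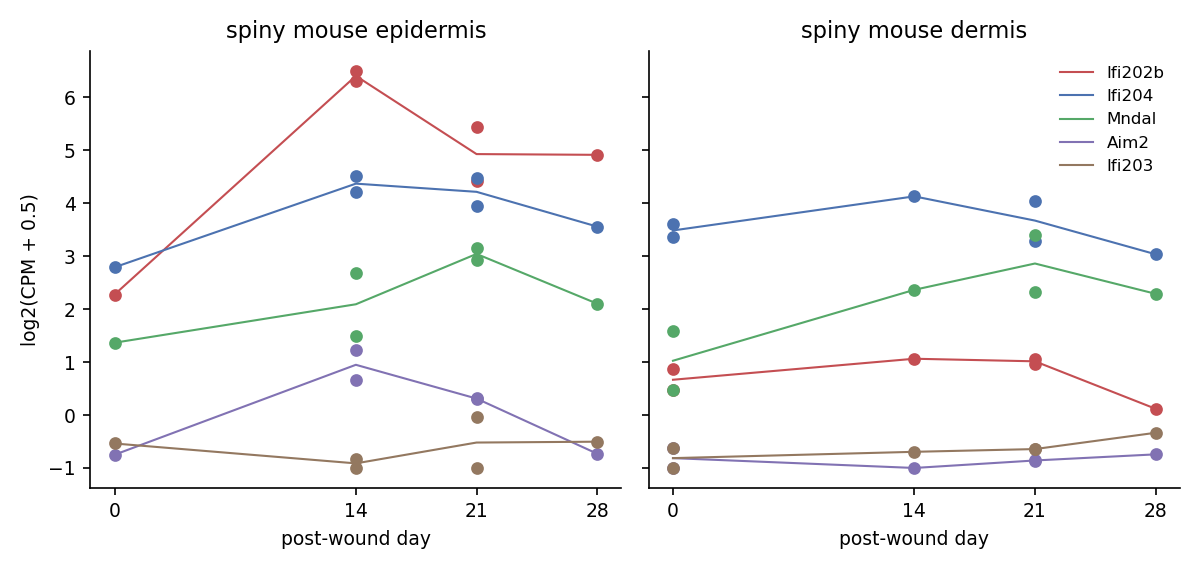
Levels of the 5 genes in the spiny mouse by post-wound day, as log2(CPM + 0.5), with 1 point per library and lines through the mean of each day. Ifi202b is highest in epidermis at PWD14, 78.6 and 90.4 CPM, and stays at or below 1.59 CPM in dermis.

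In spiny mouse dermis, PWD21 was compared with PWD0, the time before hair neogenesis. Mndal rose from 0.882 and 2.498 CPM to 10.03 and 4.52 CPM (log2 fold change 1.999, SE 0.62, adjusted p = 0.0441), the only call among the 3 genes tested, beside 26.2% of the 14481 genes tested. Its PWD0 values rest on 5 and 17 counts, and the call was lost without PWD21 Chuong547 (adjusted p = 0.379), PWD21 Chuong548 (adjusted p = 0.0840) or PWD0 Chuong533 (adjusted p = 0.0543). Ifi204 had 11.6 and 9.85 CPM at PWD0 and 16.1 and 9.32 CPM at PWD21 (log2 fold change 0.11, SE 0.41), and Ifi202b a log2 fold change of 0.37 (SE 0.66). Ifi203 and Aim2 had at most 5 counts in any of these libraries and were not tested.

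Interferon targets were higher in spiny mouse dermis of PWD21. Of 21 tested, 8 rose and 0 fell, with a median log2 fold change of 1.504 beside 0.03 over all genes, led by Oasl2 (3.19, SE 0.59, adjusted p = 0.00681), Mx1 (3.14, SE 0.50, adjusted p = 0.00343) and Mx2 (2.66, SE 0.38, adjusted p = 0.00218), which encode antiviral proteins. Il18 (-2.96, SE 0.37, adjusted p = 0.00129), Pycard (-1.48, SE 0.37, adjusted p = 0.0226) and Il1b (-1.16, SE 0.29, adjusted p = 0.0205) fell, the 3 calls among 14 genes of DNA sensing and the inflammasome. Of the cell type markers, 5 of 6 keratinocyte, 5 of 5 muscle and 4 of 4 adipocyte genes fell and 3 of 6 fibroblast genes rose. Of 8 macrophage genes 1 rose (Csf1r, 1.25) and 1 fell (Fcgr1, -2.97). Of 4 dendritic cell genes 1 fell (Cd207, -2.73), of 2 neutrophil genes 1 rose (S100a9, 3.69), and 0 of 5 lymphocyte genes were called. Their part in the Mndal values was not tested, and 26.2% of all genes were called in this comparison.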

How the data were processed

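For each of the 25 libraries the authors deposited a table of raw counts, with 24500 gene rows and 5 summary lines of the counter, which were left out. Lines that are no genes hold 30.2% to 42.3% of the laboratory mouse totals. Per the study's methods, reads were aligned to mm10 with STAR and counted with htseq-count 0.6.0 on RefSeq genes. The submitters' processing notes list STAR 2.4.1d. The strand setting of the counting is not given in the sources used here. Conditions were taken from the labels, and the wild-type center dermis libraries were divided as the study plotted them.

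CPM were computed from all gene rows. Counts were tested with edgeR 4.0.16 in R 4.3.3 (TMM scaling, filterByExpr, quasi-likelihood test, Benjamini-Hochberg adjustment over all genes tested), using the libraries of each comparison. The scripts were tested on simulated data. Alternatives were DESeq2 1.42.0, its size factors in edgeR, no filter, a minimum of 10 counts in every library, the edgeR 3 estimate of dispersion, and leaving out each library. A fold against 0 counts was taken against 3 counts in the library where that floor is largest. Floors cover counting error only. Gene positions, start-site sequences and motifs came from RefSeq on GRCm38.p6, where 24424 symbols were found, and transcripts from GENCODE M21.

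Named are the 5 genes, the other genes of the cluster, the 5 most abundant flanking genes, the 5 genes most like Ifi202b, the 5 leading genes with at most 3 counts in each library of 1 genotype, Glo1 and Nnt, and up to 4 called genes of each list with the largest change, apart from items not reported here. Twist1 and the sex-linked genes were read as checks. Members and lists were chosen with earlier results of these data known.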

Additional observations from a re-analysis of the deposited data

Results flagged for a closer look

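The center-margin order of Ifi202b was opposite in epidermis and dermis, and the interaction test picked it out. The fitted interaction was 11.79 on the log2 scale (SE 1.70, edgeR's quasi-likelihood test, adjusted p = 0.00587), a size that depends on the prior count because both dermis center libraries held 0 counts. In dermis the gene was counted in the margin alone, so the call is no support for a difference. It was lost without Chuong781 (adjusted p = 0.0690), Chuong782 (adjusted p = 0.0558) or Chuong786 (adjusted p = 0.0718). Both epidermis center libraries lay above both margin libraries, and both dermis margin libraries lay above both center libraries. The summed keratinocyte genes were 1761 and 3547 CPM in the margin dermis libraries and 604 and 379 CPM in the center ones, and their part in the result was not tested.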

How the results depend on the processing

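The number of the 5 genes called moved with the method. In laboratory mouse epidermis it was 0 in the reported fit, 2 with DESeq2 and 0 to 3 when leaving out 1 library. In dermis it was 0 and, with DESeq2, 1. In spiny mouse epidermis it was 3, and 1 without the low-count filter or with the edgeR 3 estimate, and 1 to 3 when leaving out 1 library. In spiny mouse dermis it was 1, 0 with at least 10 counts in every library, and 0 to 1 when leaving out 1 library. The interaction was called for 1, for 0 with at least 10 counts in every library, where Ifi202b could not be tested, and for 0 to 2 when leaving out 1 library. Other causes were not tested. The KO comparison called 8 genes, 787 with DESeq2, 0 with at least 10 counts in every library (1273 at an unadjusted p under 0.05), 2 with the edgeR 3 estimate, 190 with all 5 wild-type center libraries, and 1 to 3353 when leaving out 1 library (3353 without Chuong757, 27 without Chuong758, 2 without Chuong754 and 1 without either other wild-type library). Over all genes, the epidermis comparison called 176, 1511 with DESeq2 and 0 with the edgeR 3 estimate (2893 unadjusted), and 70 to 7405 when leaving out 1 library. The dermis comparison called 125, 738 with DESeq2, 54 with the edgeR 3 estimate, 323 with all 5 wild-type center libraries and 19 to 241 when leaving out 1 library. The interaction called 540, 1118 with DESeq2, 204 with at least 10 counts in every library and 167 to 1343 when leaving out 1 library. Leaving out 1 library gave 3470 to 6635 calls in spiny mouse epidermis, against 6002, and 1311 to 5118 in spiny mouse dermis, against 3792. Of 218 refitted values of single genes, 179 kept direction and side of the threshold, 17 lost and 11 gained the call, and 11 changed sign. Leaving out 1 library gave -0.061 to 0.52 for Ifi203 and -0.014 to 0.59 for Mndal in epidermis, -0.19 to 0.94 for Ifi203 in dermis, -0.65 to 0.46 for Ifi203 in the interaction, -1.16 to 0.11 for Mndal in spiny mouse epidermis and -0.27 to 0.44 for Ifi204 in spiny mouse dermis, and all 5 wild-type center libraries gave -0.10 for Ifi203 and -0.086 for Aim2 in dermis. The bound for Ifi202b in KO dermis was 798-fold with TMM-scaled CPM and 769-fold to 828-fold when leaving out 1 KO library. It is a description, since these values were used to choose the gene. The edgeR 3 estimate, libraries Chuong781 and Chuong782 alone and leaving out a KO library for this bound were chosen after seeing the data. No paired analysis was possible because the libraries carry no numbers that pair them across groups. Groups of 2 libraries limit all tests, and spiny mouse Aim2 and Ifi203 are near the floor.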
